A study of Homo sapiens with 6 samples.

Results

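ATP-binding cassette (ABC) transporter genes were followed in RNA-seq libraries of MDA-MB-231, an established line of human breast cancer that is triple-negative, lacking hormone receptors and HER2 amplification. The members were the protein-coding rows whose symbol starts with ABCA, ABCB, ABCC, ABCD, ABCE, ABCF or ABCG and a digit. There were 45 of them among the 58735 deposited rows. A further 16 rows with such symbols are pseudogenes or antisense RNAs and were left out. The membranes had been dyed red with PKH26, which each division dilutes, and the cells then grew for 12 days. Sorting took the 1% with the most dye as the slow-cycling group (SCC). The rapid-cycling group (RCC) had moderate dye according to the protocol and low dye according to the characteristics of each sample. Both groups were wild-type cells of this 1 line, stained alike and with no drug, and each gave 3 biological replicates, 6 libraries in all. The labels do not say whether replicates came from separate stainings, so p-values measure the spread between these libraries.

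ABC proteins share an ATP-binding cassette, and most use ATP to move a substrate across a membrane. In tumors the family is best known for pumping drugs out of cells, through ABCB1 (P-glycoprotein), ABCG2 (breast cancer resistance protein) and the ABCC proteins. Most members have other cargo: sterols and phospholipids for many ABCA and ABCG proteins, fatty acyl-CoA in peroxisomes for ABCD proteins, and metabolites of mitochondria for several ABCB proteins. ABCE1 and the ABCF proteins have no membrane part and act on ribosomes.

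The SCC libraries held 19498054 to 27831824 summed counts, and the RCC libraries 17655855 to 22746267. VIM, a mesenchymal marker of this line, had a mean of 794 CPM in SCC, with an SD of 38.5, against 774 ± 23.7 CPM in RCC (n = 3 each), and the hormone receptor genes ESR1 and PGR reached at most 16 and 3 counts in any library. CPM here are counts scaled to a common library size, not to gene length. SCC replicate 1 stood apart by GC content. Its median log2 deviation from the mean of the 6 libraries ran from -0.24 in the tenth of tested genes lowest in GC to 0.40 in the tenth highest, whereas the other libraries lay between -0.16 and 0.10. Mitochondrial genes took 4.56% ± 0.17 of the SCC counts against 3.89% ± 0.11 of the RCC counts (SD over 3 libraries each), and their part in the results below was not tested. In bulk RNA, fewer cells that express a gene and less RNA per cell cannot be told apart.

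The family was present mainly through its intracellular members. Levels per length are given as FPKM (fragments scaled by gene length and library size), the deposited unit that can be compared between genes. The highest mean over the 6 libraries was that of ABCF1, a translation factor, at 44.3 ± 2.47 FPKM (SD, n = 6 libraries). ABCE1, which splits ribosomes after termination, followed at 37.5 ± 4.19 FPKM. The next were ABCD3, a peroxisomal acyl-CoA transporter, at 20.8 ± 2.12, and ABCC1, an exporter of glutathione conjugates and drugs, at 15.3 ± 1.49 FPKM. ABCF3 and ABCA2 were next at 10.6 ± 0.547 and 10.3 ± 1.74 FPKM, a difference within their SD. These 6 genes made up 65.8% of the summed FPKM of the 45 members, and 18 members had a mean of at least 1 FPKM.

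All 45 members had a count in at least 1 library, but 15 fell below the filter on low counts and were not tested in the fit reported here, with at most 16 counts in any library. ABCB1 was among them. It had 7, 3 and 6 counts in SCC replicates 1 to 3 and 7, 0 and 7 in RCC replicates 1 to 3, a mean of 0.0397 FPKM. In RCC replicate 2, a count of 0 allows up to 0.143 CPM (3 counts of the library total, counting error only). With the filter removed, ABCB1 had a log2 fold change of 0.039 (standard error 0.823, adjusted p 0.993 by edgeR), so a moderate difference was not detectable at this depth. In that test 0 of the 15 were called, 0 had an unadjusted p under 0.05, and the smallest adjusted p was 0.418. The same counts of 0 came from limma on log2(FPKM + 1) without a filter. The others not tested were ABCA6, ABCA9, ABCA10, ABCA12, ABCA13, ABCB4, ABCB5, ABCB11, ABCC8, ABCC11, ABCC12, ABCD2, ABCG5 and ABCG8. These include genes known for bile transport in liver (ABCB4, ABCB11, ABCG5, ABCG8) and for the sulfonylurea receptor of the pancreas (ABCC8). The plot of levels sets the tested and untested genes side by side.

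**Figure D1:**
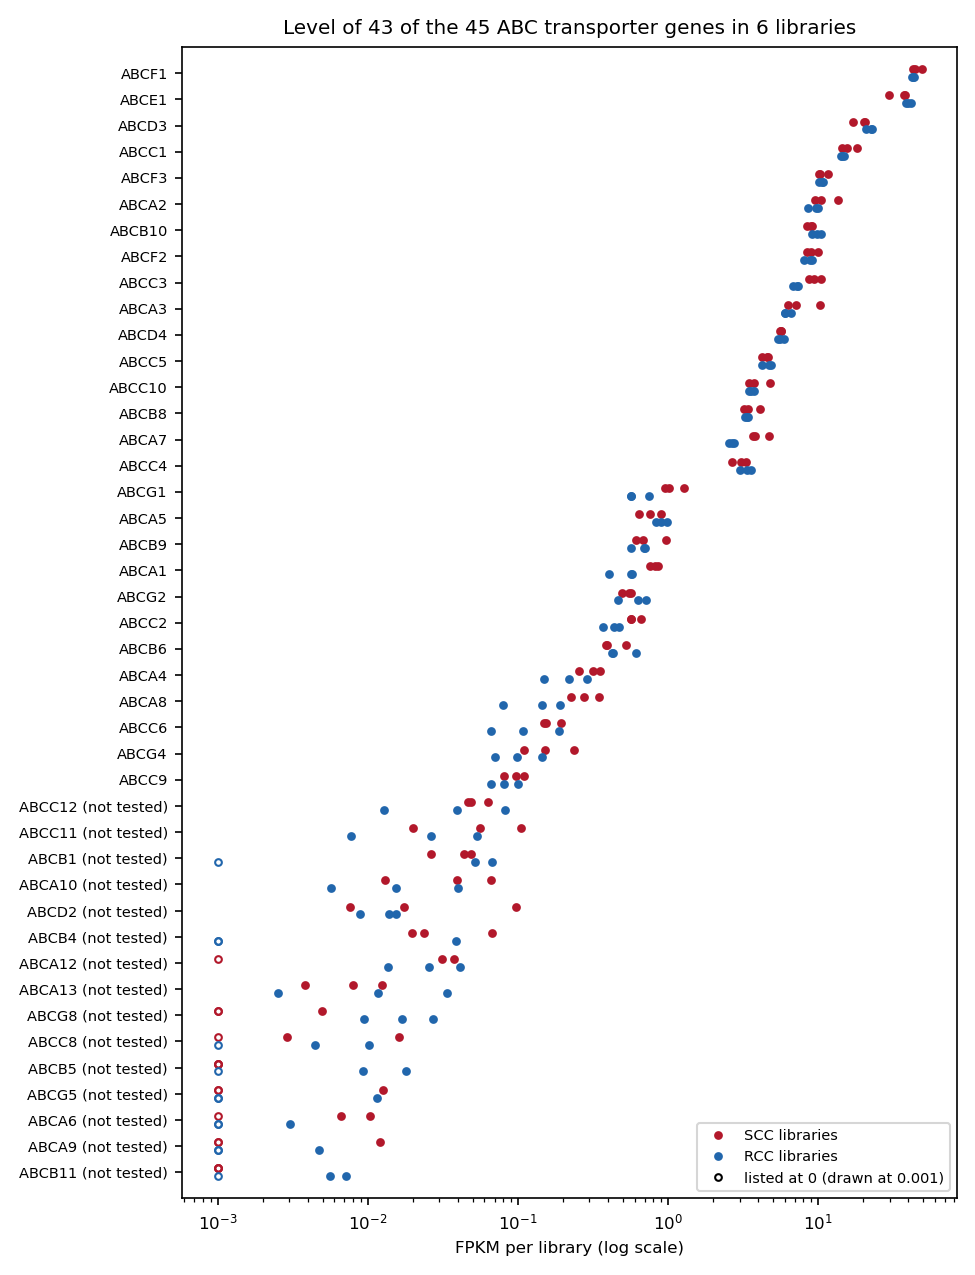
FPKM of 43 of the 45 ABC genes in the 3 SCC libraries (red) and 3 RCC libraries (blue), on a log axis, with genes ordered by mean level. ABCF1, ABCE1 and ABCD3 lie at the top at means of 44.3, 37.5 and 20.8 FPKM, and ABCB1 lies among the 15 genes below the count filter, at a mean of 0.0397.

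Of the 30 tested members, 3 rose in SCC, namely ABCA7, ABCC3 and ABCG1, and 0 fell. The test was the quasi-likelihood test of edgeR, with p adjusted by Benjamini-Hochberg over 15881 genes and called under 0.05. Among all tested genes 1.69% rose and 0.378% fell. Before adjustment, p was under 0.05 for 8 members with a positive and 2 with a negative difference, against 11.4% and 8.27% of all tested genes. These shares are also the background for the counts of groups and lists below from the same fit. DESeq2 called 5 members higher and 0 lower, and over all tested genes 480 higher and 170 lower. The SCC libraries all lay above the RCC libraries for 7 members and all below for 4, against 14.4% and 13.4% of all tested genes. The median log2 fold change of SCC over RCC was 0.16 over the tested members and 0.00 over all tested genes. That median was 0.019 without SCC replicate 1, and 0.021 when a GC-dependent offset was fitted in each library. Under both settings the 3 calls held and ABCA1 was added, and the GC offset added ABCA8 as well. All 3 were lost when any 1 RCC library was left out.

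**Figure D2:**
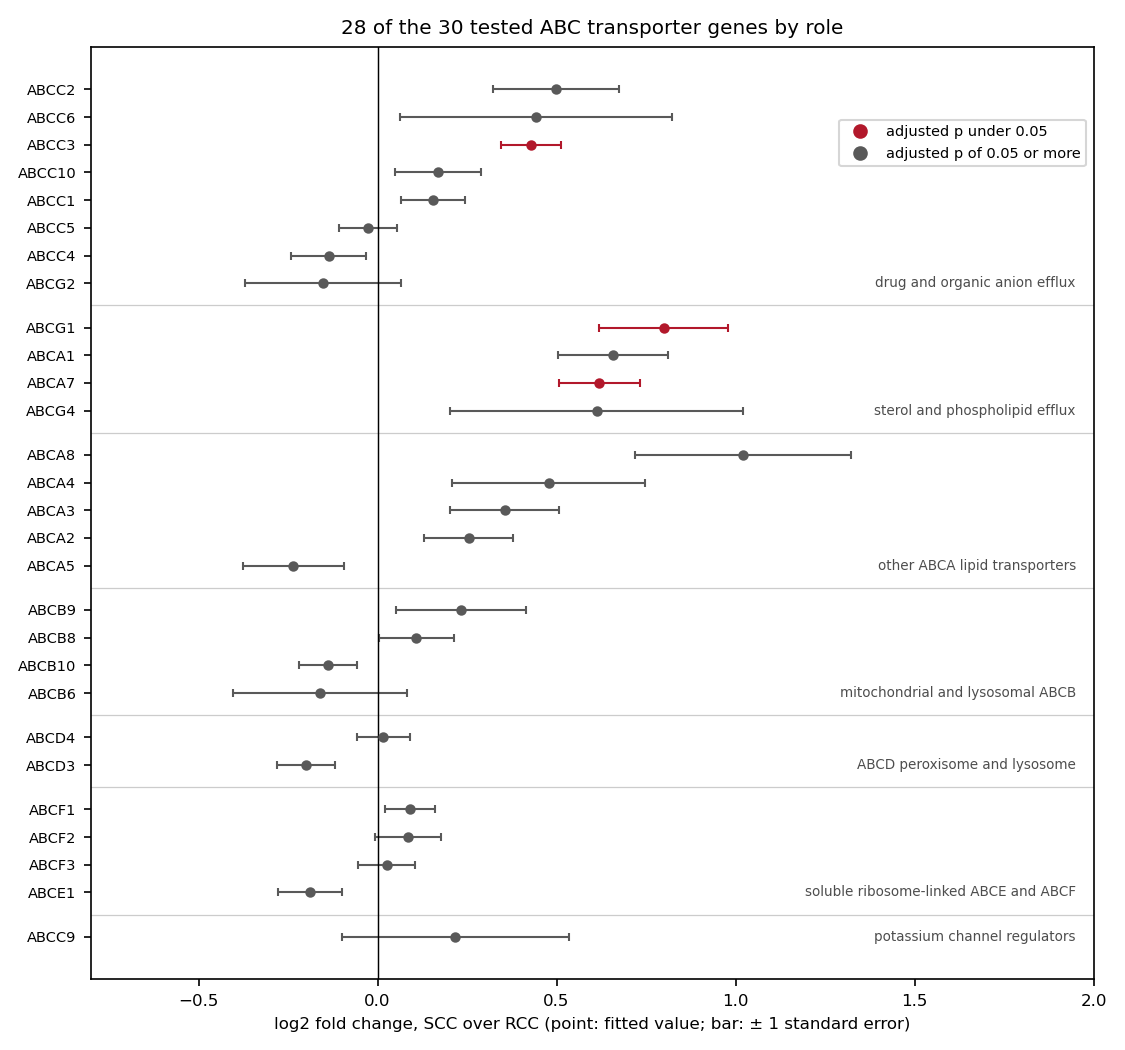
Log2 fold change of SCC over RCC with its standard error for 28 of the 30 tested ABC genes, grouped by role; red points have an adjusted p under 0.05. The 4 genes of sterol and phospholipid efflux lie between 0.61 and 0.80, and ABCB10 and ABCB9 lie at -0.14 and 0.23.

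The 6 members that export sterols and phospholipids were ABCA1, ABCA7, ABCG1, ABCG4, ABCG5 and ABCG8. Of these, 4 were tested, 2 rose in SCC (ABCA7 and ABCG1) and 0 fell; 0 were called without RCC replicate 1, 2 or 3. The median log2 fold change of the 4 was 0.64. Without SCC replicate 1 the median was 0.77 and 3 of the 4 were called higher, ABCA1 being the third. The summed level of the 6 genes was 51.3 ± 4.10 CPM over the SCC libraries against 32.9 ± 0.27 over the RCC libraries (SD, 3 libraries each).

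ABCA7 (ENSG00000064687, chromosome 19, 1040101 to 1065572, GRCh38) exports phospholipids. It was at 40.1, 30.8 and 31.7 CPM in SCC replicates 1 to 3 and at 21.4, 22.3 and 23.2 in RCC replicates 1 to 3. Every SCC library lay above every RCC library, with SCC replicate 1 the highest. The fitted fold change was 1.54 (log2 0.62, standard error 0.112, adjusted p 0.0174 by edgeR). Its transcript is rich in GC, at 64.7%, and with the GC offset the log2 fold change was 0.35 (adjusted p 0.0110 by edgeR). Leaving out SCC replicate 1 gave 0.49 (adjusted p 5.0e-04). The call was lost without RCC replicate 1, 2 or 3 (adjusted p 0.123, 0.0971 and 0.0830).

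ABCG1 (ENSG00000160179, chromosome 21, 42199689 to 42297244) moves cholesterol to high-density lipoprotein. Its level was 6.33, 7.81 and 5.87 CPM in SCC and 3.51, 3.43 and 4.58 CPM in RCC, again without overlap. The fold change was 1.74 (log2 0.80, standard error 0.180), close to the threshold at an adjusted p of 0.0488 by edgeR. Leaving out SCC replicate 1 kept the call (log2 0.84, adjusted p 0.00748). It was not called without SCC replicate 2 or 3 (0.0634 and 0.0818) or without RCC replicate 1, 2 or 3 (0.225, 0.209 and 0.0830).

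ABCA1 (ENSG00000165029, chromosome 9, 104781002 to 104928237) passes cholesterol and phospholipids to apolipoprotein A1. It was at 8.70, 9.85 and 9.37 CPM in SCC and at 6.55, 6.39 and 4.63 in RCC. The groups did not overlap, but the adjusted p of 0.0578 by edgeR missed the threshold (log2 fold change 0.66, standard error 0.155). Without SCC replicate 1 it was called higher (log2 0.70, adjusted p 0.00611), as with the GC offset (0.70, adjusted p 0.00947). The fourth tested gene, ABCG4, was low, at 0.704, 1.48 and 0.947 CPM in SCC and 0.911, 0.620 and 0.447 in RCC. Its libraries overlapped and it was not called (log2 fold change 0.61, adjusted p 0.414 by edgeR).

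**Figure D3:**
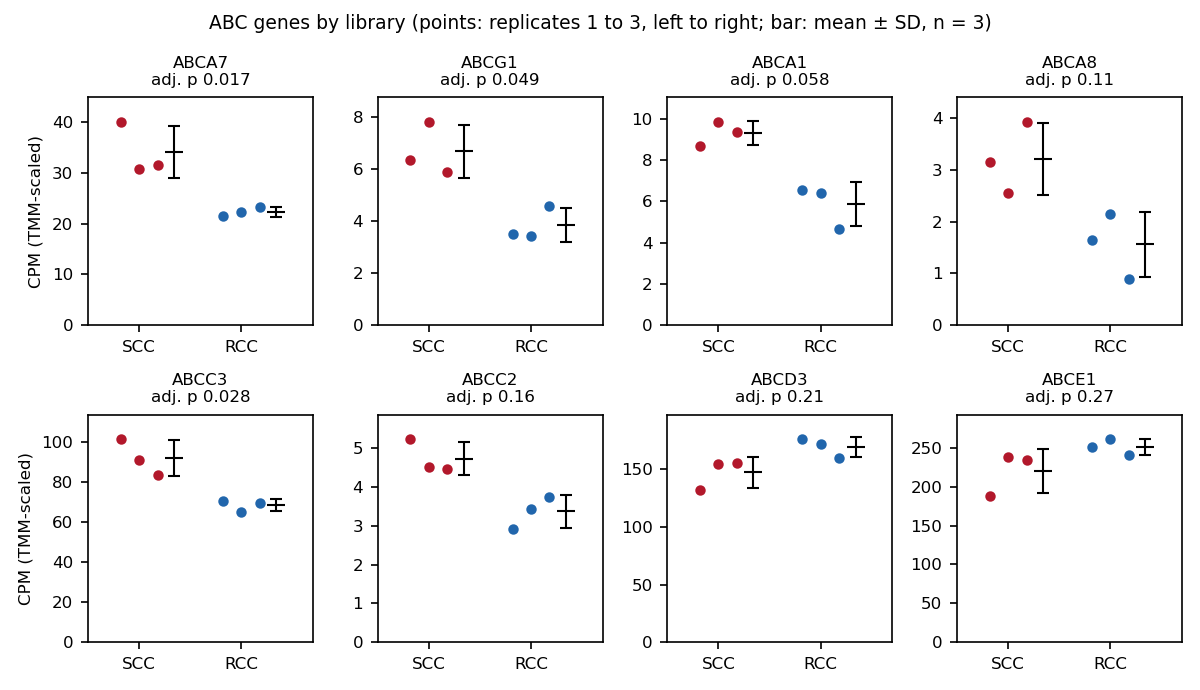
CPM of 8 ABC genes in each library, with replicates 1 to 3 from left to right, the mean and the SD (n = 3). SCC lies above RCC in every library for ABCA7, ABCG1, ABCA1, ABCA8, ABCC3 and ABCC2, and below for ABCD3 and ABCE1.

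ABCA1 and ABCG1 are textbook targets of the liver X receptors (LXR), oxysterol-sensing nuclear receptors that bind DNA with RXR. The RefSeq promoter table (GRCh38.p14) held 53 windows for 35 of the 45 members, some with several start sites, among them ABCA1 and ABCA7. ABCG1 and ABCC3 had no window, so their promoters were not searched. Their 250 bases before the RefSeq start are shown because ABCA7 rose and ABCA1, the best-known LXR target of the family, was near the threshold. The ABCA1 window is chr9:104928156-104928405, minus strand, and the ABCA7 window is chr19:1039857-1040106, plus strand; the GENCODE start of each gene lies inside its window. Both read 5′ to 3′, with motif matches in capitals.
ABCA1: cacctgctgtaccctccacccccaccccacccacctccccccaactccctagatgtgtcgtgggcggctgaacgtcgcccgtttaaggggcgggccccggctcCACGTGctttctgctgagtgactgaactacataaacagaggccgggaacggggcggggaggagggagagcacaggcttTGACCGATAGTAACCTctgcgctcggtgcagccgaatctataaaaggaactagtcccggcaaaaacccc
ABCA7: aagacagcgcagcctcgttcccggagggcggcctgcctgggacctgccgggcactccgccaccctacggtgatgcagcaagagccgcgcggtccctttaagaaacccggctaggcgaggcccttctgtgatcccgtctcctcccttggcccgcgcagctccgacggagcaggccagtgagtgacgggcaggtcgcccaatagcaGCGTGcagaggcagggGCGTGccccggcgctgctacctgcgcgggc

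In the ABCA1 window the capitals mark an E-box, CACGTG, and a direct repeat of nuclear receptor type, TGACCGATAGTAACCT, read on the opposite strand. That repeat was searched on both strands as NGGTNA, any 4 bases and NGGTNA again, a relaxed pattern written after the data had been seen. It lay 69 to 54 bases before the start, and it was the 1 match in the 53 member windows, where 0.5% of all 35116 windows of the same length had one. The E-box was found in 9 of the 53 member windows (17.0%) and in 6.3% of all windows. In ABCA7 the capitals mark 2 copies of GCGTG, the core of the aryl hydrocarbon receptor element, which occurred in 21 of the 53 member windows (39.6%) and 32.2% of all windows. The AP-1 motif TGANTCA was found in 5 of the 53 (9.4%), 1 each of ABCA10, ABCB1, ABCB11, ABCC11 and ABCD2, all below the count filter, and in 6.6% of all windows. The antioxidant element TGACNNNGC was in 9 of the 53 (17.0%) and 10.9% of all windows. The cyclic AMP element TGACGTCA was in 1 of the 53 (1.9%), that of ABCE1, and in 1.6% of all windows. Windows of 1 gene can overlap, so these shares are descriptions. All motifs were searched on both strands. The matches shown do not overlap each other.

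A list of 16 other genes of the sterol pathway held the LXR and RXR genes, LXR targets and efflux partners. Of its 15 tested members 1 rose, MYLIP, and 0 fell. The log2 fold change was above 0 for 14 of the 15, where 50.5% of all tested genes were above 0. Unadjusted, p was under 0.05 for 9, all with a positive difference, where 11.4% of all tested genes had such a p and sign. The median log2 fold change was 0.21. Leaving out SCC replicate 1 gave 0.15, with 2 called higher and 6 under an unadjusted p of 0.05. The GC offset gave a median of 0.090, with 2 called higher and 5 under that p. The 9 were 5 without SCC replicate 3, and 4, 2 and 5 without RCC replicates 1, 2 and 3. MYLIP, a ubiquitin ligase that degrades the LDL receptor and is an LXR target, was at 39.8, 40.6 and 38.2 CPM in SCC and at 23.9, 21.9 and 22.1 in RCC. Its fold change was 1.75 (log2 0.81, standard error 0.0833, adjusted p 4.0e-04 by edgeR), and it kept the call in all 18 alternatives.

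The list was written with earlier results of these data known, so its counts are descriptions. The genes named next were chosen from it after their values had been seen. NR1H2 and NR1H3, which encode the LXR proteins, had log2 fold changes of 0.33 and 0.27 (adjusted p 0.164 and 0.234 by edgeR). SREBF1, an LXR target that drives fatty acid synthesis, had 0.36 (adjusted p 0.180). APOE, a lipoprotein that accepts cholesterol, was at 3.74, 2.14 and 1.23 CPM in SCC and 0.738, 0.620 and 1.68 in RCC, so its groups overlapped (adjusted p 0.169). SCD, another LXR target, had -0.05 (adjusted p 0.698).

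**Figure D4:**
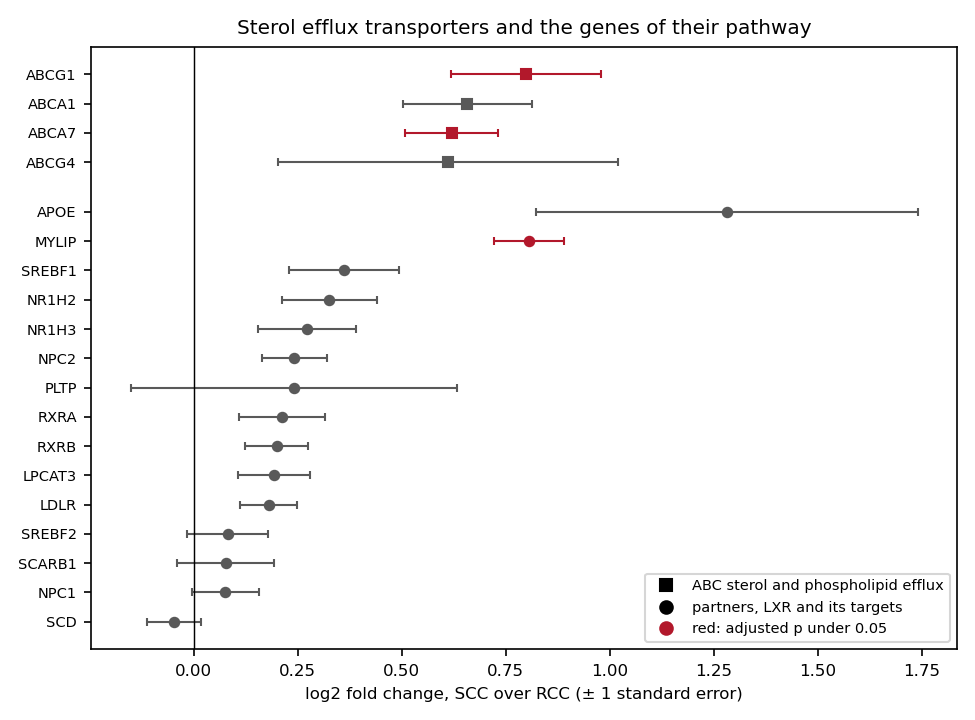
Log2 fold change of SCC over RCC with its standard error for the 4 tested ABC genes of sterol and phospholipid efflux (squares) and the 15 tested genes of the LXR and efflux partner list (circles); red marks an adjusted p under 0.05. MYLIP lies at 0.81 with a short error bar, and SCD at -0.05 is the 1 gene of the list below 0.

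Markers of other cell types were read beside these genes. The 10 leukocyte markers summed to 4.67 CPM in SCC replicate 1 and to 0.97 and 1.61 in SCC replicates 2 and 3, against 1.06 to 1.19 in RCC. PTPRC, which encodes the common leukocyte antigen, was at 1.96 CPM in SCC replicate 1 and at 0.143 to 0.710 in the other 5 libraries. Of the 10 leukocyte markers, 2, 7 and 5 were at 0 counts in SCC replicates 1 to 3. In RCC replicates 1 to 3, 4, 4 and 6 were at 0. Without SCC replicate 1, ABCA1 and ABCG1 had log2 fold changes of 0.70 and 0.84, against 0.66 and 0.80 with it. That of ABCA7 was smaller without this library. The median over the tested members was 0.019 without it and 0.16 with it. The 10 fibroblast and vascular markers summed to 28.6 to 33.7 CPM in SCC and 23.4 to 27.4 in RCC, without overlap. Of these, 4 were tested and 0 called by edgeR, with 1 higher before adjustment. The log2 fold change was positive in all 4, with a median of 0.21. The part of these markers in the differences was not tested.

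Drug and organic anion exporters gave 1 call. Of 14 members in this group 8 were tested. By edgeR 1 rose (ABCC3) and 0 fell, where 1.69% and 0.378% of all tested genes did. At an unadjusted p under 0.05, 2 were higher and 0 lower, against 11.4% and 8.27% of all tested genes. The median log2 fold change of the 8 was 0.16, and 0.031 without SCC replicate 1. The 14 genes summed to 336 ± 24.8 CPM over the SCC libraries against 298 ± 9.68 over the RCC libraries (SD, 3 libraries each).

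ABCC3 (ENSG00000108846, chromosome 17, 50634777 to 50692252) exports glucuronide conjugates and bile acids. It was at 102, 91.2 and 83.8 CPM in SCC replicates 1 to 3 and 70.9, 65.1 and 69.7 in RCC replicates 1 to 3. All SCC libraries lay above all RCC libraries. The fold change was 1.35 (log2 0.43, standard error 0.0841, adjusted p 0.0283 by edgeR). The GC offset gave 0.32 (adjusted p 0.00367). Leaving out RCC replicate 1, 2 or 3 ended the call (0.130, 0.160 and 0.145).

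ABCC2 (ENSG00000023839, chromosome 10, 99782640 to 99852594), the apical counterpart of ABCC3 in liver, was at 5.22, 4.49 and 4.45 CPM in SCC and 2.91, 3.43 and 3.74 in RCC. These groups did not overlap, yet the adjusted p was 0.165 by edgeR (log2 fold change 0.50, standard error 0.176). ABCG2 (ENSG00000118777, chromosome 4, 88090264 to 88231322), the pump behind the dye-excluding side population of stem-like cells, was low and overlapped. Its values were 2.93, 2.81 and 2.51 CPM in SCC against 3.65, 2.34 and 3.18 in RCC (log2 fold change -0.15, standard error 0.218, adjusted p 0.715 by edgeR).

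ABCC1 (ENSG00000103222, chromosome 16, 15949577 to 16143074), the exporter of this group with the highest FPKM, was at 139.5, 109.6 and 119 CPM in SCC and 114, 108 and 109 in RCC. SCC replicate 1 was the highest and the others overlapped (log2 fold change 0.15, adjusted p 0.349 by edgeR). ABCC4 and ABCC5 carry cyclic nucleotides among other anions. ABCC4 was at 23.4, 26.6 and 28.5 CPM in SCC and 29.2, 30.9 and 26.1 in RCC, and ABCC5 at 49.3, 53.0 and 52.6 against 55.7, 48.1 and 54.1. ABCC10, a drug exporter, was at 39.4, 28.3 and 30.4 CPM against 28.2, 28.9 and 30.5. None of these 3 passed the test (adjusted p 0.474, 0.874 and 0.445 by edgeR), and the groups overlapped in each. ABCC6 overlapped too, at 1.14 to 1.48 CPM in SCC and 0.503 to 1.43 in RCC. It has near-identical pseudogene copies, so its counts are uncertain.

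Among 10 regulators of drug efflux genes 8 were tested and 0 were called by edgeR and by DESeq2, with 1 higher and 0 lower before adjustment. That gene was AHR, the aryl hydrocarbon receptor, at 71.4, 74.7 and 69.0 CPM in SCC and 57.5, 58.0 and 61.1 in RCC (log2 fold change 0.28, adjusted p 0.0729 by edgeR). AHR was called with the GC offset (log2 0.41, adjusted p 0.00187) and without SCC replicate 1 (log2 0.29, adjusted p 0.0040). Of 14 tested genes of other drug transport and conjugation, 1 rose and 0 fell. This was MVP, the major vault protein, at 123, 100.5 and 103 CPM in SCC against 79.2, 84.6 and 86.0 in RCC (log2 fold change 0.39, adjusted p 0.0482 by edgeR). The GC offset brought this to 0.19 (adjusted p 0.0446). Leaving out SCC replicate 3 (0.0913) or any RCC library (0.235, 0.173 and 0.170 for replicates 1 to 3) ended the call of MVP.

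The remaining ABCA genes, 10 in all, act on lipids in lysosomes, lamellar bodies, retina and other tissues. Of the 5 tested, 0 were called by edgeR, and DESeq2 called 1, ABCA8. Unadjusted, p was under 0.05 for 2, ABCA8 and ABCA3. ABCA8 (ENSG00000141338, chromosome 17, 68867292 to 68955392) had the highest log2 fold change of the 30 tested members, 1.02 (standard error 0.302, adjusted p 0.113 by edgeR). It was at 3.15, 2.55 and 3.93 CPM in SCC and 1.65, 2.15 and 0.893 in RCC, without overlap but low. With the GC offset ABCA8 was called (log2 1.11, adjusted p 0.0371 by edgeR). ABCA3 (ENSG00000167972), which fills lung lamellar bodies with surfactant lipid, was at 81.2, 49.8 and 55.4 CPM in SCC and 52.2, 46.5 and 47.4 in RCC. ABCA2 (ENSG00000107331), an endosomal and lysosomal lipid transporter, was at 159, 109.8 and 121 CPM against 112, 99.0 and 116. In both genes SCC replicate 1 was far above the rest and the other libraries overlapped. Log2 fold changes were 0.36 for ABCA3 and 0.25 for ABCA2 (adjusted p 0.235 and 0.278 by edgeR). Without SCC replicate 1 they were 0.11 and 0.081. ABCA4 and ABCA5 had 0.48 and -0.24 (adjusted p 0.340 and 0.365), and the groups overlapped in each.

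The mitochondrial and lysosomal ABCB genes gave 0 calls among 5 tested members by edgeR and by DESeq2, with a median log2 fold change of -0.14. ABCB10, which supports heme synthesis, was at 39.1, 38.6 and 36.3 CPM against 39.2, 41.9 and 44.5, every SCC library below every RCC library (log2 fold change -0.14, adjusted p 0.363). ABCB8, also mitochondrial, was at 39.0, 31.8 and 30.1 against 30.7, 31.6 and 31.4 CPM, and ABCB6, linked to porphyrin transport, at 2.07, 2.76 and 2.04 against 2.26, 2.19 and 3.24. ABCB9, a lysosomal peptide transporter, was at 13.2, 8.11 and 9.14 CPM against 7.64, 9.16 and 9.33. The groups of ABCB6, ABCB8 and ABCB9 overlapped (adjusted p 0.734, 0.571 and 0.483 by edgeR). The unadjusted p of these 4 genes lay above 0.05. Counts of ABCB6 and ABCB9 are uncertain, because 54.7% of the exonic bases of ABCB6 lie in another gene model on the same strand and ABCB9 overlaps ARL6IP4 and OGFOD2 on the opposite strand. Among 14 tested mitochondrial iron-sulfur and heme genes 0 were called by edgeR and by DESeq2, and p was under 0.05 for 0 even unadjusted.

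Of the ABCD genes, which act in peroxisomes and lysosomes, 0 were called by edgeR and by DESeq2. ABCD3 (ENSG00000117528, chromosome 1, 94418455 to 94518666) was lower in every SCC library, at 132, 155 and 155 CPM against 176, 171 and 159.8. Its adjusted p was 0.209 (log2 fold change -0.20, unadjusted p 0.0298), and the GC offset gave -0.070. ABCD4, a lysosomal cobalamin transporter, was at 50.5, 49.5 and 49.8 CPM in SCC and 49.2, 46.9 and 52.0 in RCC, which overlapped (adjusted p 0.921). Of 15 tested genes of peroxisomal fatty acid oxidation 1 rose and 0 fell. It was CRAT, carnitine acetyltransferase, at 24.4, 17.8 and 16.3 CPM in SCC and 12.2, 12.5 and 11.9 in RCC (log2 fold change 0.68, adjusted p 0.0439 by edgeR). CRAT was not called without RCC replicate 1, 2 or 3 (0.189, 0.154 and 0.184).

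The 4 soluble, ribosome-linked genes, which include the 2 with the highest FPKM, were all tested. Of them 0 were called by edgeR and by DESeq2, with 0 at an unadjusted p under 0.05. ABCE1 (ENSG00000164163, chromosome 4, 145097932 to 145129179) was at 188, 238 and 235 CPM in SCC and 250.5, 261 and 241 in RCC. The groups did not overlap, but SCC replicate 1 lay far below the other 5 libraries. The log2 fold change was -0.19 (standard error 0.0906, adjusted p 0.274 by edgeR), and -0.085 without SCC replicate 1. Parts of its exons overlap OTUD4 and ANAPC10 on the opposite strand. ABCF1 (ENSG00000204574) was at 225, 201 and 196 CPM against 197, 195 and 192. ABCF2 was at 42.3, 37.6 and 35.6 against 38.4, 36.6 and 33.9 CPM, and ABCF3 at 61.2, 53.4 and 53.4 against 55.9, 56.1 and 53.2. Counts of ABCF2 are uncertain, as 45.8% of its exonic bases lie in another gene model on the same strand. Each of the ABCF genes overlapped between groups (adjusted p 0.481, 0.621 and 0.882 by edgeR).

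Partners of these proteins at the ribosome gave 1 rise and 0 falls among 14 tested genes. PELO, which opens stalled ribosomes for ABCE1, was at 52.0, 53.2 and 56.0 CPM in SCC and 42.7, 43.8 and 41.8 in RCC (log2 fold change 0.33, adjusted p 0.0488 by edgeR). PELO was called in 5 of 18 alternatives. Its call was lost with RLE scaling (0.0554), upper-quartile scaling (0.0624), a filter at 10 counts per library (0.0516), thinning (0.0642), the replicate block (0.0715) and limma (0.0762 to 0.175). It was also lost without SCC replicate 2 or 3 (0.0532 and 0.169) and without RCC replicate 1, 2 or 3 (0.238, 0.188 and 0.225). Before adjustment, 2 of the 14 were higher and 3 lower at p under 0.05, against 11.4% and 8.27% of all tested genes. Without SCC replicate 1 edgeR called 1 of the 14 higher and 1 lower. Over all tested genes that setting called 642 higher and 343 lower. The potassium channel regulator ABCC9 overlapped between groups, at 0.947 to 1.28 CPM in SCC and 0.763 to 1.17 in RCC (adjusted p 0.719).

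The family genes TAP1, TAP2 and CFTR carry other symbols and are not among the 45. TAP1 and TAP2 form the pump that brings peptides to MHC class I. TAP1 was at 51.2, 39.7 and 46.0 CPM in SCC and 39.8, 38.8 and 39.4 in RCC (log2 fold change 0.22, adjusted p 0.249 by edgeR), and TAP2 at 105, 116 and 116 against 118, 122 and 107 (adjusted p 0.774). The groups overlapped in both. CFTR, a chloride channel, had at most 4 counts and was not tested. Of 15 tested peptide loading and MHC class I genes, 2 rose and 0 fell. HLA-B was at 132, 119 and 131 CPM in SCC and 79.9, 71.3 and 72.3 in RCC (log2 fold change 0.77, adjusted p 3.5e-04 by edgeR), and it kept the call in all 18 alternatives. The log2 fold change of HLA-E was 0.32 (adjusted p 0.0421 by edgeR), and its call was lost without SCC replicate 3 (0.130) and without each RCC library (0.158, 0.181 and 0.218 for replicates 1 to 3). With SCC replicate 1 left out, 6 genes of this list were called higher and 0 lower. Over all tested genes that setting called 642 higher and 343 lower, against 268 and 60 with every library. Reads of HLA genes can be split between near-identical copies, so these values are uncertain. Of 11 tested genes of lysosomal and intracellular lipid traffic, 1 rose and 0 fell: CTSD, cathepsin D, at 194, 134 and 152 CPM in SCC and 98.9, 104 and 99.1 in RCC (log2 fold change 0.67, adjusted p 0.0135 by edgeR). CTSD was not called without RCC replicate 1, 2 or 3 (0.102, 0.0684 and 0.0980).

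GC content moved with the differences across the family. Over the 30 tested members, Pearson's r between the GC content of the longest transcript and the deviation of SCC replicate 1 was 0.65. Between GC content and the log2 fold change it was 0.36, and 0.16 without SCC replicate 1. With the GC offset it was -0.04, but that offset was fitted on GC content and is built to bring it near 0. These are descriptions across genes, which share libraries and are not independent replicates. The 6 members with at least 60% GC, among them ABCA2, ABCA3 and ABCA7, had deviations of 0.27 to 0.57 in SCC replicate 1. The 7 members under 42% GC had a median deviation of -0.26. Of these 7, ABCA8 was the highest at 0.43.

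**Figure D5:**
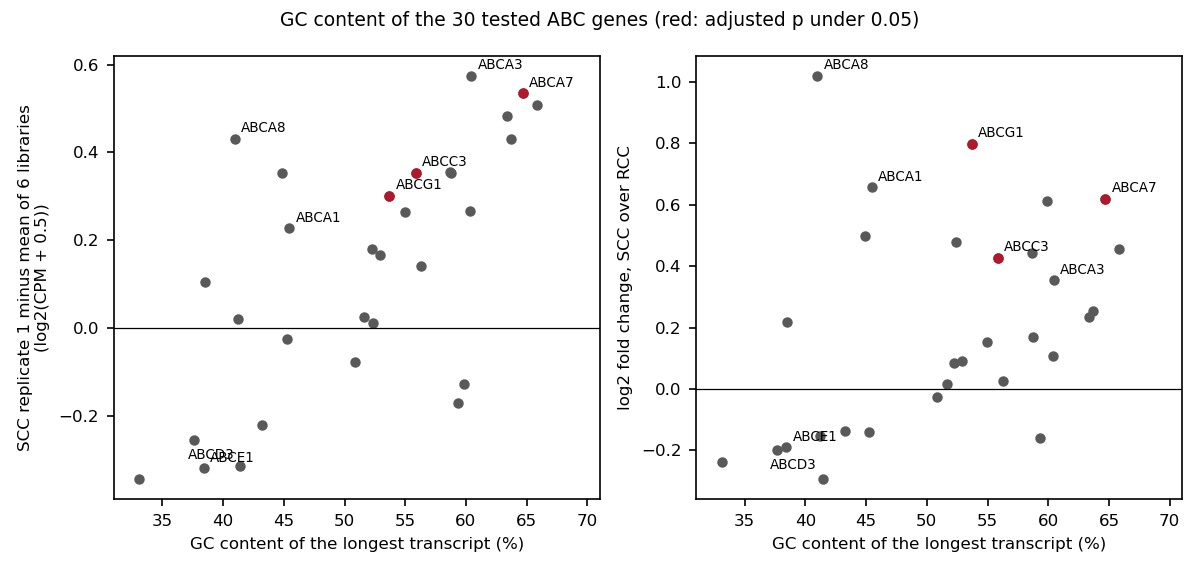
GC content of the longest transcript against how far SCC replicate 1 lay from the 6-library mean in log2 units (left) and against the log2 fold change of SCC over RCC (right), for the 30 tested ABC genes; red points have an adjusted p under 0.05. The left panel rises with GC content (r = 0.65), and in the right panel ABCA8, ABCG1 and ABCA1 lie high at 41.0% to 53.7% GC.

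Summed over the 45 members, SCC libraries held 1440.3 ± 60.2 CPM and RCC libraries 1385 ± 22.8 CPM (SD, n = 3). The difference of 55.2 CPM gave a two-sided exact permutation p of 0.3, where 0.1 is the smallest that 3 against 3 libraries allow. SCC replicate 1 was the highest at 1510 CPM, and the other SCC libraries, at 1403 and 1408, overlapped the RCC range of 1371 to 1411.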

How the data were processed

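The authors deposited, for each gene, a read count as a whole number and an FPKM value. HISAT2 2.0.5 and featureCounts 1.5.0-p3 are named in the submitters' processing notes. The use of strand and the build are not given in the sources used here, so overlapping genes (16 of the 45 members share exonic bases with another gene) are uncertain. All 58735 rows matched GENCODE release 29 (GRCh38) by gene ID, start and end. Each FPKM value deposited by the authors equalled the count divided by gene length and 1 constant per library, within 0.1%.

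Counts were filtered with filterByExpr (minimum count 10), scaled by TMM, edgeR's default, and modelled by group alone with glmQLFit in edgeR 4.0.16 (R 4.3.3). The two-sided quasi-likelihood test was adjusted by Benjamini-Hochberg over 15881 genes, and an adjusted p under 0.05 was called. CPM uses TMM-scaled totals. Standard errors were taken from the F statistic, as the log2 fold change over its square root. The steps were tested on simulated data. Alternatives used other scalings (RLE, upper quartile), other filters, thinning to the smallest library, a replicate block, each library left out, DESeq2 1.42.0, limma 3.58.1 with trend on log2(FPKM + 1) or log2(FPKM + 0.1) for genes at 1 FPKM in 3 libraries, and a GC offset (lowess, span 0.3, GC of the longest GENCODE transcript). The labels give no pairing by replicate number, and the main fit used none.

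The members, roles, lists and tests were chosen with earlier results of these data known. Values in every library are given for called members, the 10 smallest p, the 6 highest FPKM and a fixed set by role. From each list the called genes are named, at most 4, or otherwise the 1 with the smallest p. Counts of 0 and intervals cover counting error only. Single-gene values of 2 tested members and 1 list gene are not reported here.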

Additional observations from a re-analysis of the deposited data

How the results depend on the processing

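In every one of the 18 alternatives 0 ABC genes were called lower. Against 3 called higher, DESeq2 gave 5, the GC offset 5, the replicate block with the GC offset 5 and a test of every gene with at least 1 count 7. Over all tested genes, calls higher numbered 268 in the main fit and 480, 522, 634 and 995 under these settings in turn. Thinning, upper-quartile scaling and a filter at 10 counts per library each gave 2, without ABCG1. Over all tested genes they gave 237, 249 and 238 higher. The 3 limma fits on FPKM gave 0, with 3, 3 and 4 members higher and 2 lower in each at an unadjusted p under 0.05; they tested 18, 18 and 45 members. The limma fits called 130, 117 and 48 of all their tested genes higher. Leaving out 1 library at a time gave 0 to 4, with 0 without RCC replicate 1, 2 or 3 and 4 without SCC replicate 1. Over all tested genes, 99, 99 and 103 were called higher without RCC replicates 1 to 3, and 642 without SCC replicate 1. The median log2 fold change of 0.16 ranged from 0.019 (without SCC replicate 1) to 0.21 (without SCC replicate 2) in these fits. With limma it was 0.070 on log2(FPKM + 1), 0.079 on log2(FPKM + 0.1) and 0.018 on log2(FPKM + 1) without a filter. The edgeR test of every gene with at least 1 count gave 0.17. It was 0.021 with the GC offset and 0.020 with the block and the GC offset. Some of these fits hold fewer libraries or genes, and the cause of the changes was not tested.

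The labels give no pairing of SCC with RCC libraries. Deviations from the group means in same-numbered libraries had correlations of -0.0091, 0.025 and -0.079 over tested genes. These values showed no pairing but cannot exclude it. SCC replicate 1 stood apart by GC content and enters the deviations of every SCC library. With the replicate block 4 members were called higher, the 3 and ABCA1 (adjusted p 0.0448 by edgeR), and 456 genes in all against 328.

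Signs turned for genes near 0. The GC offset and the block with the offset gave ABCB8 -0.077 and -0.076, ABCB9 -0.021 and -0.021, ABCD4 -0.023 and -0.023, and ABCF3 -0.086 and -0.085. ABCD4 was -0.0020 with upper-quartile scaling, and ABCF3 -0.016 after thinning to the smallest library. Leaving out 1 library at a time gave -0.32 to 0.025 for ABCB6, -0.013 to 0.17 for ABCB8, -0.0070 to 0.35 for ABCB9, -0.093 to 0.0067 for ABCC5, -0.025 to 0.046 for ABCD4, -0.045 to 0.048 for ABCF3 and -0.10 to 0.0022 for TAP2. All 15 members below the count filter entered the test of every gene with a count and limma without a filter, where 0 of them were called. When SCC replicate 2 or 3, or RCC replicate 1 or 3, was left out, 31 members passed the filter instead of 30. The drug and organic anion exporters then had 9 tested members instead of 8, and no member from below the filter was called.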

Other observations

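Among the 15 ABC genes below the count filter, ABCG8, which forms a sterol exporter with ABCG5 in liver and gut, had 0, 1 and 0 counts in SCC replicates 1 to 3 and 4, 2 and 5 in RCC replicates 1 to 3. ABCB5 had 0 counts in each SCC library and 2, 0 and 3 in RCC. ABCB5 is known as a marker of drug-tolerant melanoma cells. Both genes were picked after their values had been seen. With the filter removed, neither was called (adjusted p 0.418 for ABCG8 and 0.488 for ABCB5 by edgeR).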
